A study of Mus musculus with 8 samples.

Results

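Entry into the meiotic divisions is carried by a small set of kinases and cyclins, and 10 of their genes are described here in mouse testis, namely Ccna1, Ccnb1, Ccnb2, Ccnb3, Cdk1, Cdc25c, Plk1, Aurka, Aurkb and Aurkc. They were chosen by gene symbol from the 19906 genes of the deposited table, and each symbol matched 1 row. All 10 passed the filter on low counts, as did 15787 genes in all. One library was sequenced from the whole testis of each of 8 mice at 2 months of age, of which 4 were Tmem232-/- and 4 were Tmem232+/+. The Tmem232-/- mice carry a constitutive deletion in Tmem232, made by CRISPR-Cas9 in oocytes of C57BL/6 mice, which germ cells and somatic cells of the testis share, and no other treatment is stated for either genotype. The question asked of the data was whether the transcripts of the division machinery differed between these genotypes.

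In mitosis and meiosis, the kinase CDK1 is active only when bound to a cyclin of the A or B type and after the phosphatase CDC25C, or a relative of it, has removed inhibitory phosphates. PLK1, a polo-like kinase, and the aurora kinases then act on centrosomes, spindle and kinetochores, and the spindle checkpoint and the anaphase-promoting complex time the separation of chromosomes. In the testis, division machinery of this kind is used by dividing spermatogonia and, at the end of the long meiotic prophase, by spermatocytes, though not every member serves both. CCNA1 is the A-type cyclin of male meiosis, CCNB3 is best known from meiotic cells, and AURKC is the aurora kinase of germ cells.

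Libraries held from 15428421 to 16350871 counts, and each level is in counts per 1000000 (CPM), scaled by the TMM method. Tmem232, the deleted gene, had 148, 132, 123 and 122 CPM in the libraries labelled Tmem232-/- (replicates 1 to 4) and 111, 106, 108 and 109.9 CPM in those labelled Tmem232+/+. All 4 libraries labelled Tmem232-/- were above the others, so the count of the gene, which includes reads outside the deleted fragment, did not verify the labels, and libraries are named by their labels throughout. Markers of spermatogonia, spermatocytes, spermatids, Sertoli cells and Leydig cells were detected in every library, although Prm1 and Prm2, which encode the protamines of elongating spermatids, averaged only 4.55 and 6.44 CPM in the libraries labelled Tmem232+/+. In whole tissue, fewer cells of a type and less RNA per cell cannot be told apart.

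The set of RefSeq promoters of GRCm38.p6 used here had entries for 8 of the members. It had none for Aurkb and Cdc25c, whose promoters were not searched. The windows run from 250 bases before the annotated start to 50 bases after it. They were searched on both strands for TTTGAA, a form of the cell cycle genes homology region, and for CCAAT, the box bound by NF-Y, which can share at most the 1 base at their ends. Both motifs are textbook elements of promoters that are active in G2 and M phase. The parts from 100 bases before to 50 bases after the start are shown for Cdk1, Ccnb2, Plk1 and Aurka, the 4 members that held both motifs, and for Ccnb1, which held CCAAT alone, with every TTTGAA and CCAAT (or its reverse complement ATTGG) in capitals, so that the shared letters and their spacing can be read.

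Cdk1, chr10:69352863-69353012, minus strand: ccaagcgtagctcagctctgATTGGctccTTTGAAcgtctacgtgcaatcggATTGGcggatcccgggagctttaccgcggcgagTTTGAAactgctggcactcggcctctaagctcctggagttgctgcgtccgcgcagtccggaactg
Ccnb2, chr9:70421505-70421654, minus strand: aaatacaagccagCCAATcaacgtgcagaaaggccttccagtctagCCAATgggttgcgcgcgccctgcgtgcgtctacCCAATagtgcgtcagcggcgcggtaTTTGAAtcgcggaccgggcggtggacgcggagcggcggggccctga
Plk1, chr7:122159335-122159484, plus strand: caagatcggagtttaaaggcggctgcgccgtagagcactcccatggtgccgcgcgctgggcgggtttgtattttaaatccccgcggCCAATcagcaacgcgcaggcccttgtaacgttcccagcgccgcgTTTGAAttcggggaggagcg
Aurka, chr2:172370521-172370670, minus strand: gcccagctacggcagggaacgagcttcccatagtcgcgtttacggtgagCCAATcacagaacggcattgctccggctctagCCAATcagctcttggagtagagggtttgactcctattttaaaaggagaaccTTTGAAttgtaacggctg
Ccnb1, chr13:100786437-100786586, minus strand: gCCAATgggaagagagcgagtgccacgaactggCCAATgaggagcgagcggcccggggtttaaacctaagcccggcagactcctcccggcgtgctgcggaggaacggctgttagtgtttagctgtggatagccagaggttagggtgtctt

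TTTGAA was present in 4 of the 8 members' windows and in 17.9% of 32851 RefSeq windows of the same length. CCAAT was present in 7 of the 8 and in 37.4% of all windows, and both were present in 4 of the 8 and in 6.95% of all windows. In Ccnb2, 3 CCAAT boxes lay upstream of the start, and in Cdk1 each TTTGAA lay before the start. In Plk1 and Aurka TTTGAA lay after the annotated start, and in Ccnb2 it began at -167 and at 5 bases from the start. The TTTGAA of Ccnb2 at -167 and an ATTGG of Cdk1 at -208 lie outside the parts shown. Ccna1 and Aurkc held CCAAT without TTTGAA, and Ccnb3 held neither. A match describes letters in these windows and shows no binding.

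None of the 10 members differed between the genotype labels at an adjusted p under 0.05 in edgeR's quasi-likelihood test, where 11.8% of all tested genes did. None reached a fold change of 2 with an unadjusted P under 0.05, which 5.59% of all tested genes did. At an unadjusted P under 0.05, Aurka, Aurkb and Cdk1 were lower in the libraries labelled Tmem232-/-, which is 3 of 10 members beside 10.5% of all tested genes. DESeq2 gave 2 such members, Aurka and Aurkb, limma-voom gave the 3 of edgeR, and neither gave a member at an adjusted p under 0.05. Over all alternatives, the number of members at an unadjusted P under 0.05 lay between 1 and 5. The log2 fold change was below 0 for 8 of 10 members, beside 60.8% of all tested genes, and over the alternative fits this number ranged from 6 of 10, without replicate 1 labelled Tmem232+/+, to 10 of 10, for example when libraries were scaled by their size alone. The median of the members was -0.12 and that of all tested genes -0.05, and without replicate 1 labelled Tmem232+/+ they were -0.05 and -0.0067. In CPM scaled by TMM, the groups overlapped for each of the 10 members, whereas the libraries labelled Tmem232-/- lay entirely below the others for 6.88% and entirely above them for 11.8% of all tested genes. On other scales the libraries labelled Tmem232-/- lay entirely below the others for Aurka and Ccna1 in FPKM, at 105.6 to 118.7 against 123 to 139 and at 99.1 to 109.57 against 109.87 to 119 FPKM, and for Aurka with library size alone. The share of all tested genes that did so was not determined on these scales, so these members cannot be set against it. The 95% intervals were computed for each gene alone, without adjustment over the 10 members, so they give no joint bound. Their lowest bound, that of Aurkb, was a change of -33.4% and their highest, that of Cdc25c, a change of 20.2%.

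**Figure D1:**
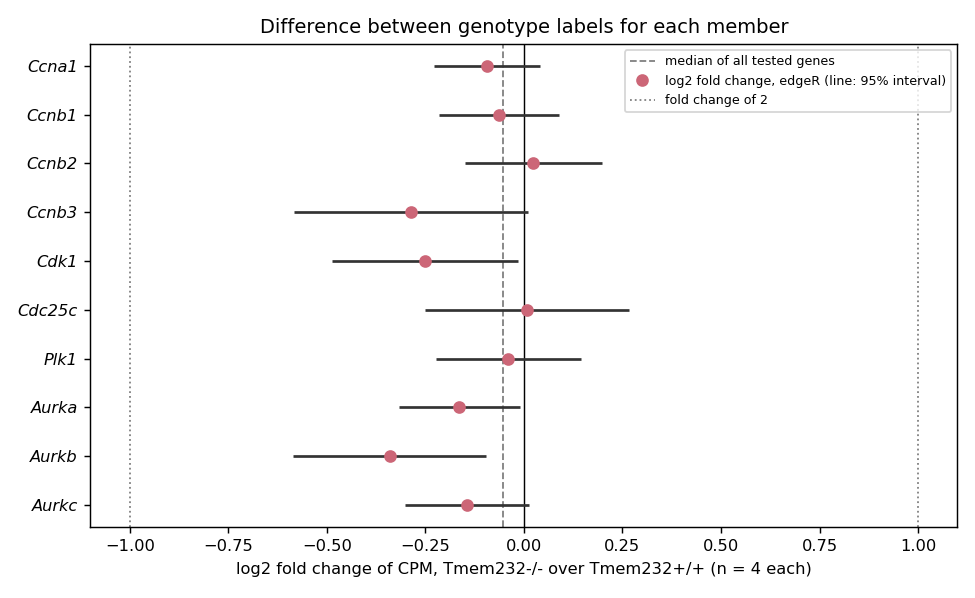
Log2 fold change of CPM in the libraries labelled Tmem232-/- over those labelled Tmem232+/+ for each member (edgeR, n = 4 each), with lines for the 95% interval, a dashed line for the median of all tested genes and dotted lines at a fold change of 2. All intervals lie inside the dotted lines, and those of Cdk1, Aurka and Aurkb lie below 0 without an adjusted p under 0.05.

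Of the cyclins, Ccna1 (Entrez ID 12427, chromosome 3 from 55045469 to 55055501, minus strand of GRCm38) was at 142, 148, 142 and 150.4 CPM in the libraries labelled Tmem232-/- (in the order of replicates 1 to 4, as below). Those labelled Tmem232+/+ had 161, 149, 162 and 149.7 CPM. Replicates 1 and 3 labelled Tmem232+/+ lay above all libraries labelled Tmem232-/-, and the other libraries overlapped. The means were 145.5 ± 4.47 and 155 ± 7.05 (SD, n = 4 each), a log2 fold change of -0.09 (SE 0.061, adjusted p = 0.374 from edgeR). Leaving out either of the 2 higher libraries, replicate 1 or 3 labelled Tmem232+/+, brought it to -0.04. The 95% interval for this cyclin of male meiosis ran from -14.7% to 2.90% change.

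Ccnb1 (Entrez ID 268697, chromosome 13 from 100778650 to 100786570, minus strand), a cyclin that brings CDK1 to mitotic and meiotic entry, had 71.3, 80.4, 69.8 and 75.3 CPM in the libraries labelled Tmem232-/- and 83.4, 76.2, 73.3 and 77.2 CPM in the others. The log2 fold change was -0.06 (SE 0.070, adjusted p = 0.608 from edgeR), and it rested on replicate 1 labelled Tmem232+/+, without which it was 0.01. Ccnb2 (Entrez ID 12442, chromosome 9 from 70407692 to 70421547, minus strand), its close relative, had 212, 175, 177 and 194 CPM in the libraries labelled Tmem232-/- and 198, 174, 194 and 179.8 CPM in the others. The highest and the second lowest of the 8 libraries were both labelled Tmem232-/-, so that the genotypes were interleaved. Its log2 fold change of 0.02 (SE 0.079, adjusted p = 0.876 from edgeR) had a 95% interval from -9.90% to 14.7% change. Ccnb3 (Entrez ID 209091, chromosome X from 6979652 to 7041619, minus strand) was the least abundant cyclin, with 113 to 197 counts per library. It had 7.52, 8.79, 10.2 and 7.69 CPM in the libraries labelled Tmem232-/- and 10.8, 11.9, 8.74 and 10.3 CPM in the others. Replicate 3 was the highest of the first group and the lowest of the second, and the remaining libraries were separate. The means of Ccnb3 were 8.56 ± 1.26 and 10.4 ± 1.33 (SD, n = 4 each), with a log2 fold change of -0.29 (SE 0.135, adjusted p = 0.215 from edgeR). Counting error alone gives a coefficient of variation of 8.11% at the depth of Ccnb3, beside 14.7% and 12.7% measured within the genotypes.

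Cdk1 (Entrez ID 12534, chromosome 10 from 69335146 to 69352938, minus strand), the kinase that all these cyclins serve, had 45.4, 41.6, 40.9 and 52.6 CPM in the libraries labelled Tmem232-/-. It had 52.0, 51.2, 64.0 and 47.8 CPM in those labelled Tmem232+/+. Replicates 1 to 3 labelled Tmem232-/- were below all libraries of the other label, while replicate 4 was above 3 of those 4. This gave a log2 fold change of -0.25 (SE 0.107, adjusted p = 0.173 from edgeR), with a 95% interval from -28.7% to -1.07% change. The exact permutation test gave a two-sided p of 0.114. Single libraries moved this value both ways in the same edgeR test, to -0.32 (adjusted p = 0.085) without replicate 4 labelled Tmem232-/- and to -0.13 (adjusted p = 0.436) without replicate 3 labelled Tmem232+/+. Cdc25c (Entrez ID 12532, chromosome 18, minus strand), the phosphatase, had 11.1, 11.99, 9.87 and 10.7 CPM in the libraries labelled Tmem232-/- and 10.5, 9.20, 12.6 and 11.2 CPM in the others. The lowest and the highest library were both labelled Tmem232+/+. Its log2 fold change was 0.01 (SE 0.117, adjusted p = 0.976 from edgeR), and 152 to 199 counts per library left a 95% interval from -15.9% to 20.2% change.

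Of the kinases that act on the spindle, Plk1 (Entrez ID 18817, chromosome 7 from 122159439 to 122169873, plus strand) had 101, 114, 103 and 107 CPM in the libraries labelled Tmem232-/- and 127, 108, 102 and 101 CPM in the others. Replicate 1 labelled Tmem232+/+ stood above the other 7 libraries, which overlapped. For Plk1 the log2 fold change was -0.04 (SE 0.084, adjusted p = 0.798 from edgeR), and 0.08 without that library. Aurka (Entrez ID 20878, chromosome 2 from 172356190 to 172370535, minus strand), the aurora kinase of centrosomes and spindle poles, had 188, 208, 198 and 197 CPM in the libraries labelled Tmem232-/-. Those labelled Tmem232+/+ had 245, 216, 207 and 218 CPM. The groups overlapped by a single pair, replicate 2 labelled Tmem232-/- and replicate 3 labelled Tmem232+/+, which differed by less than 1 CPM. The means of Aurka were 198 ± 8.13 and 222 ± 16.3 CPM (SD, n = 4 each). Its log2 fold change was -0.16 (SE 0.070, adjusted p = 0.174 from edgeR). Without replicate 1 labelled Tmem232+/+ it was -0.07 (adjusted p = 0.636 from edgeR). The exact permutation test gave a two-sided p of 0.057, and 0.029, the smallest p that 4 mice against 4 allow, when libraries were scaled by their size alone.

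Aurkb (Entrez ID 20877, chromosome 11 from 69045647 to 69051664, plus strand), the kinase of the chromosomal passenger complex, had the lowest log2 fold change and the lowest adjusted p of the 10 members. It had 18.2, 16.1, 16.4 and 21.3 CPM in the libraries labelled Tmem232-/- and 22.2, 22.1, 26.2 and 20.8 CPM in the others. Only replicate 4 labelled Tmem232-/- and replicate 4 labelled Tmem232+/+ crossed, by less than 1 CPM. The means were 18.02 ± 2.38 and 22.8 ± 2.34 CPM (SD, n = 4 each). This is a log2 fold change of -0.34 (SE 0.111, adjusted p = 0.077 from edgeR), or a change of -21.0% with a 95% interval from -33.4% to -6.43%. Without replicate 4 labelled Tmem232-/- the adjusted p was 0.028 in edgeR and the log2 fold change -0.42, and the adjusted p of Aurkb lay between 0.028 and 0.208 in the 19 alternatives. Aurkc (Entrez ID 20871, chromosome 7 from 6995300 to 7003091, plus strand), the aurora kinase of germ cells, had 38.8, 37.5, 38.6 and 39.7 CPM in the libraries labelled Tmem232-/- and 46.9, 39.4, 43.0 and 41.6 CPM in the others. Its levels in the first group were the most even of any member, with a coefficient of variation of 2.39%, which is below the 3.92% that counting error alone gives for Aurkc. Replicate 2 labelled Tmem232+/+ lay within the range of these levels. For Aurkc the log2 fold change was -0.14 (SE 0.071, adjusted p = 0.236 from edgeR), and -0.06 (adjusted p = 0.731) without replicate 1 labelled Tmem232+/+. The summed level of the 4 kinases ran from 346 to 376 CPM under the label Tmem232-/- and from 378 to 441 CPM under the other, a sum of which Aurka is the larger part.

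**Figure D2:**
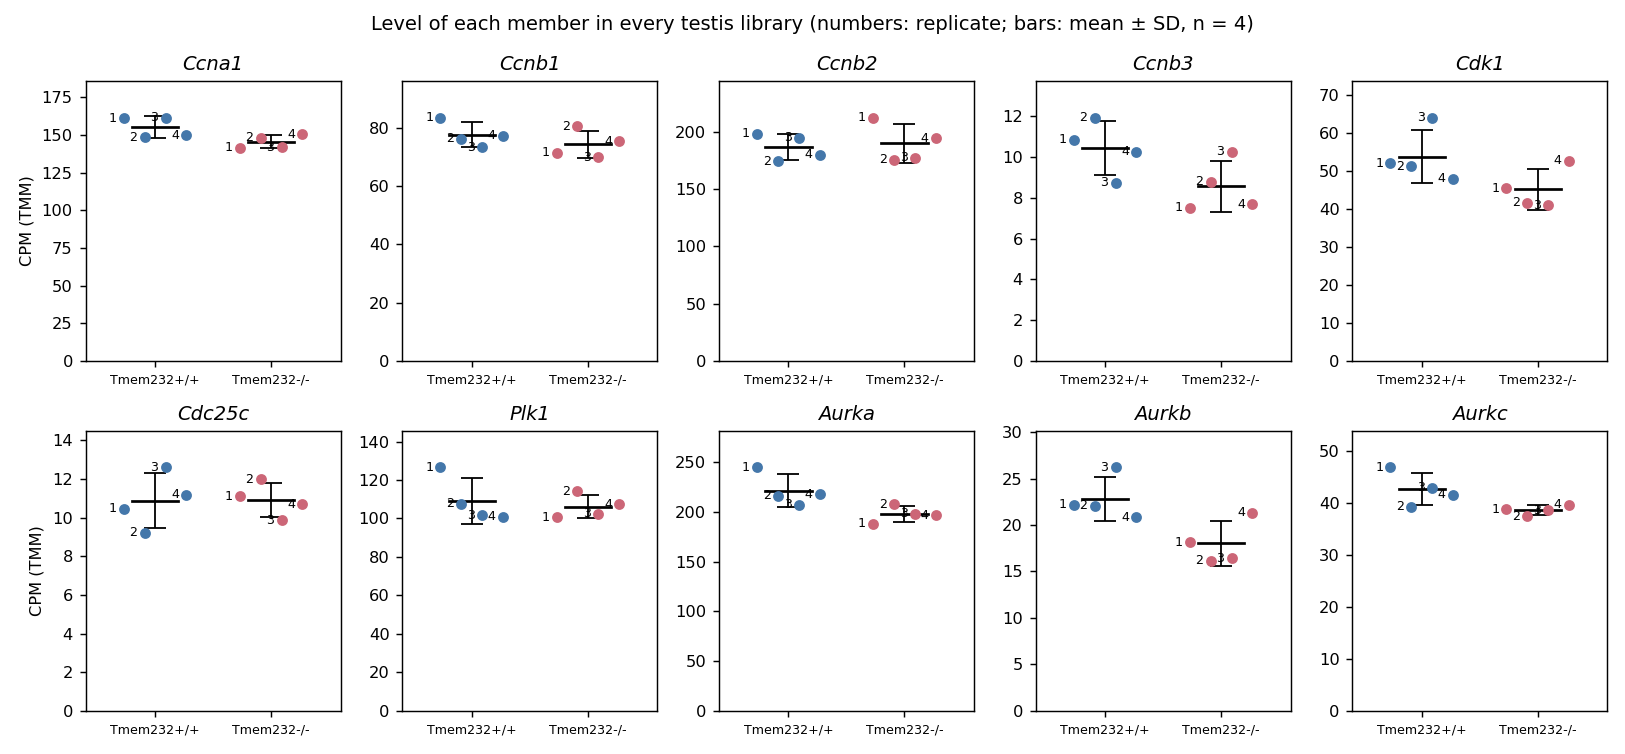
Level of each member in CPM after TMM scaling in the 8 libraries, by genotype label, with bars for the mean ± SD (n = 4) and the replicate number left of each point. On this scale the groups overlap in every panel, and for Aurka and Aurkb a single library of each label crosses.

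The libraries did not rank alike for all members, and some members shared a pattern within the genotypes. Cdk1, Aurkb and Ccna1 were highest in the same library of each label. In replicate 3 labelled Tmem232+/+ they lay 0.39, 0.38 and 0.10 above their mean over the 8 libraries on the log2 scale, and in replicate 4 labelled Tmem232-/- Cdk1 and Aurkb lay 0.10 and 0.08 above it and Ccna1 at 0.0015, while replicates 2 and 3 labelled Tmem232-/- were at -0.23 and -0.26 for Cdk1 and at -0.32 and -0.30 for Aurkb. Ccna1 was at -0.02 and -0.08 in replicates 2 and 3 labelled Tmem232-/-. Its value in replicate 1 labelled Tmem232+/+ was also 0.10, a near tie with replicate 3. Aurka, Plk1 and Ccnb1 followed another order. They were highest in replicate 1 labelled Tmem232+/+, at 0.23, 0.24 and 0.14 above their means, and in the other group they were highest in replicate 2. Replicate 4 labelled Tmem232-/- was the highest of its group for 4 members and the lowest for 0. Replicate 1 labelled Tmem232+/+ was the highest of its group for 5 members and the lowest for 0, and replicate 4 labelled Tmem232+/+ was the highest for 0. In the libraries that were highest for Cdk1, Aurkb and Ccna1, the summed spermatogonial markers were at 1078 CPM in replicate 3 labelled Tmem232+/+, the highest of the 8, and at 891 CPM in replicate 4 labelled Tmem232-/-, below only replicate 1 of its label at 903 CPM, sums of which the single gene Dmrtb1 is the larger part. The summed markers of early spermatocytes were at 2345 CPM in the former, the highest of the 8, and at 1775 CPM in the latter, the lowest. These patterns were read from the same 8 libraries, and the part of these cells in them was not tested.

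**Figure D3:**
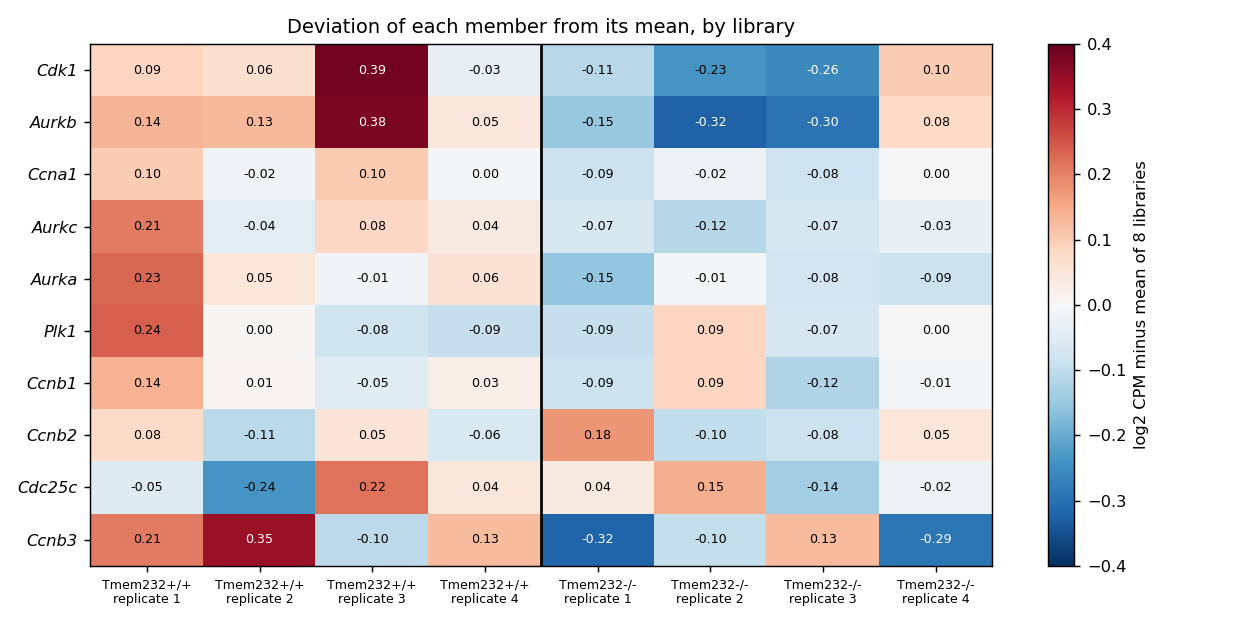
Log2 CPM of each member minus its mean over the 8 libraries, with libraries in columns by genotype label and members in rows. Cdk1, Aurkb and Ccna1 are highest in replicate 3 labelled Tmem232+/+ and replicate 4 labelled Tmem232-/- of their labels, whereas Aurka, Plk1 and Ccnb1 are highest in replicate 1 labelled Tmem232+/+.

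Levels of different genes were compared as FPKM, which divides by transcript length. In the libraries labelled Tmem232+/+, Ccnb2 had 138 ± 6.68, Aurka 130 ± 6.82 and Ccna1 113 ± 4.38 FPKM (SD, n = 4 each), and these were the 3 most abundant members. Plk1 followed at 54.0 ± 4.87, Ccnb1 at 36.6 ± 1.31, Aurkc at 32.5 ± 2.39 and Cdk1 at 20.2 ± 2.80 FPKM. The least abundant were Aurkb at 12.8 ± 1.41, Cdc25c at 6.71 ± 1.35 and Ccnb3 at 2.41 ± 0.311 FPKM. Neighbours in this order whose ranges overlapped were Ccnb2 and Aurka, and Ccnb1 and Aurkc. The other neighbours were separate in these 4 libraries. In the libraries labelled Tmem232-/- the order of the means was the same, and only the ranges of Aurka, at 113 ± 5.60, and Ccna1, at 104 ± 4.68 FPKM (SD, n = 4 each), overlapped. Of the cyclins, Ccnb2, Ccna1 and Ccnb1 had more FPKM than Cdk1 and Ccnb3 had less, with Ccna1 at 5.66 ± 0.542 and Ccnb1 at 1.83 ± 0.275 times the FPKM of Cdk1 under the label Tmem232+/+ and at 6.30 ± 0.639 and 2.08 ± 0.268 times under the label Tmem232-/-. Among the aurora kinases, Aurka had 10.2 ± 1.41 and Aurkc 2.55 ± 0.322 times the FPKM of Aurkb under the label Tmem232+/+, and 11.6 ± 1.73 and 2.98 ± 0.296 times under the label Tmem232-/- (SD, n = 4 each). The ranges of each of these ratios overlapped between the labels.

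**Figure D4:**
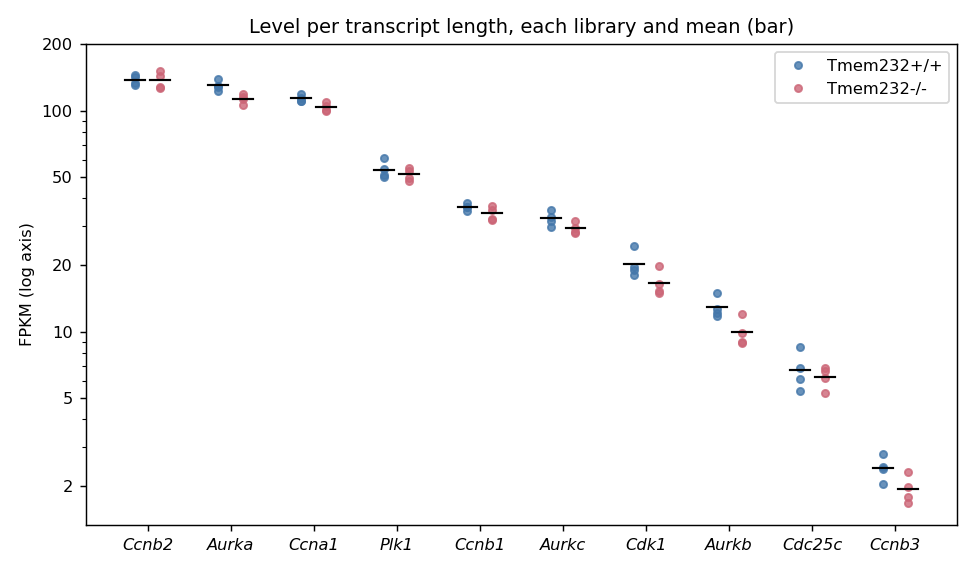
Level of each member per transcript length in FPKM on a log axis, with points for the libraries, colours for the genotype labels and bars for the means of 4 libraries. Members are ordered by their mean under the label Tmem232+/+, from Ccnb2 at 138 to Ccnb3 at 2.41 FPKM.

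Some counts could hold reads of other genes. The library kit does not mark strand, and Ccna1 shares 260 bases with the antisense gene 4931419H13Rik, Cdc25c 1656 bases with Gm3550 and Plk1 1016 bases with Gm44985, each on the opposite strand, so reads from these stretches cannot be told apart. Ccnb1, Ccnb2 and Aurkb have pseudogenes in RefSeq that were not analysed here. For Cdc25c, the transcript length implied by its counts and FPKM varied between 1516 and 1831 bases among the libraries, and its log2 fold change was -0.08 on the scale of log2(FPKM + 1), against 0.01 in counts. Neither value passed the test.

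Of 81 other genes of the division machinery in 5 lists, 80 were tested, 2 rose and 2 fell in the libraries labelled Tmem232-/- at an adjusted p under 0.05, beside 10.3% of all tested genes that rose and 1.46% that fell. The log2 fold change was below 0 for 60 of the 80, beside 60.8% of all tested genes. Their median was -0.09, beside -0.05 for all tested genes. In edgeR, other cyclins, cyclin-dependent kinases and their regulators had 1 higher and 1 lower of 25 (median -0.13), other polo-like kinases and partners of the polo and aurora kinases 0 and 1 of 13 (median -0.07), and cohesin genes 1 and 0 of 14 (median 0.02). With DESeq2, 1 gene of the polo and aurora list and 2 cohesin genes were higher. The spindle checkpoint, which holds anaphase back until kinetochores are attached, had 0 calls of 8 in edgeR, DESeq2 and limma-voom (median -0.09), with 2 genes lower at an unadjusted P under 0.05 in edgeR. One of these, Bub3, a checkpoint protein named here after its values were seen, passed the adjusted threshold with library size alone and in the 3 fits of FPKM. The anaphase-promoting complex with its regulators had 0 calls of 20 in the same tools (median -0.10), with 1 gene higher and 5 lower at an unadjusted P under 0.05 in edgeR. Of all tested genes, 14.6% were higher and 10.5% lower at this unadjusted threshold.

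Both genes that rose were also the most stable calls. Ccnd3, a D-type cyclin of the G1 phase, had 115, 92.4, 88.7 and 94.5 CPM in the libraries labelled Tmem232-/- and 57.2, 54.7, 76.2 and 57.6 CPM in the others, a log2 fold change of 0.67 (SE 0.116, adjusted p = 0.0023 from edgeR). Rec8, the cohesin subunit of meiosis that is cut when chromosomes separate, had 85.3, 74.3, 62.0 and 68.9 CPM in the libraries labelled Tmem232-/- and 46.4, 44.9, 57.3 and 50.2 CPM in the others, a log2 fold change of 0.55 (SE 0.107, adjusted p = 0.0050 from edgeR). For both, replicate 1 was the highest library labelled Tmem232-/- and replicate 3 the highest labelled Tmem232+/+, without overlap between the labels. Ccnd3 and Rec8 passed the test in each of the 19 alternatives.

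The genes that fell did so by less. Ccnd2, a D-type cyclin of spermatogonia, had 21.4, 22.8, 22.6 and 22.7 CPM in the libraries labelled Tmem232-/- and 27.2, 34.1, 24.8 and 28.6 CPM in the others, a log2 fold change of -0.36 (SE 0.099, adjusted p = 0.037 from edgeR). Cdca8, also called borealin, a partner of AURKB in the chromosomal passenger complex, had 126, 105, 118 and 116 CPM in the libraries labelled Tmem232-/- and 141, 128, 152 and 139 CPM in the others, a log2 fold change of -0.27 (SE 0.076, adjusted p = 0.045 from edgeR). The labels did not overlap for either gene. The call of Ccnd2 was lost in 12 and that of Cdca8 in 9 of 19 alternatives, among them the removal of single libraries, with an adjusted p of up to 0.1004 for Ccnd2, without replicate 1 labelled Tmem232-/-, and up to 0.174 for Cdca8, without replicate 1 labelled Tmem232+/+, in edgeR. The log2 fold change stayed between -0.39 and -0.27 for Ccnd2 and between -0.31 and -0.19 for Cdca8 in these 19 fits. In the lists without a call, the most abundant genes were Bub1, a checkpoint kinase, at 135 ± 15.7 and 135 ± 7.001 CPM, and Ube2s, a ubiquitin-conjugating enzyme of the anaphase-promoting complex, at 634 ± 64.1 and 680.1 ± 85.9 CPM (SD, n = 4 each), for the labels Tmem232-/- and Tmem232+/+.

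Markers of some cell types moved with the genotype label, and the values of all marker lists stand beside those of the division genes. Of 10 spermatogonial markers, 4 were lower at an adjusted p under 0.05 (median log2 fold change -0.35), with sums of 834 to 903 CPM under the label Tmem232-/- and 840.3 to 1078 CPM under Tmem232+/+. Most of these sums is Dmrtb1, a germ cell transcription factor, which averaged 659 and 695 CPM and did not pass the test (adjusted p = 0.638 from edgeR). Zbtb16, a factor of undifferentiated spermatogonia, averaged 11.9 and 15.2 CPM and Gfra1, a receptor of stem cells, 9.07 and 6.77 CPM, neither past the test. Of 10 markers of early spermatocytes, 1 was lower (median -0.17), with sums of 1775 to 2301 and 1972 to 2345 CPM. Sycp1 and Sycp3, which build the synaptonemal complex, averaged 386 and 276 CPM under the label Tmem232-/- and 414 and 332 CPM under Tmem232+/+. Of 9 markers of pachytene to diplotene spermatocytes, the stage before the divisions, 1 was higher (median -0.0007), and their sums of 5957 to 6558 and 5892 to 6651 CPM overlapped almost fully. Piwil1 and Mybl1 averaged 838 and 134 CPM against 869.9 and 130.4 CPM.

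Of 10 markers of round spermatids, the cells that leave the divisions, 9 were higher (median 1.12), and their sums of 863 to 1072 and 418 to 598 CPM did not overlap. Acrv1, an acrosomal protein, averaged 139 and 60.6 CPM, and Acr, the acrosomal protease, 210.1 and 183 CPM. All 10 markers of elongating spermatids were higher (median 1.64), with sums of 1335 to 2207 and 340.04 to 687 CPM. Prm1 and Prm2 averaged 95.9 and 139.7 CPM against 4.55 and 6.44 CPM. Within the labels, both spermatid sums were highest in replicate 1 labelled Tmem232-/- and in replicate 3 labelled Tmem232+/+, the libraries in which Ccnd3 and Rec8 were highest. The summed markers of spermatogonia and of early spermatocytes were highest in the same libraries, so this order was not particular to spermatids. Of 6 markers of proliferation, 1 was lower (median -0.09), and their sums of 689 to 779.5 CPM under the label Tmem232-/- and 792 to 818 CPM under Tmem232+/+ did not overlap. Mki67 and Top2a averaged 124 and 341 CPM against 131 and 365 CPM.

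Somatic markers gave fewer calls. None of 10 Sertoli cell markers (median -0.12), 8 Leydig cell markers (median 0.40), 6 macrophage markers (median 0.09), 5 endothelial markers (median -0.07) or 4 red blood cell markers (median -0.58) passed the test in edgeR. At an unadjusted P under 0.05 in edgeR, 5 Leydig cell markers were higher, 1 Sertoli cell and 1 endothelial marker lower and 0 of the others either. DESeq2 and limma-voom gave adjusted calls in the Leydig list alone of these, with 2 and 1 markers higher. Of 6 markers of peritubular myoid cells, 2 were lower in edgeR (median -0.35) and 5 were lower at an unadjusted P under 0.05. The part of these cell types in the values of the division genes was not tested.

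**Figure D5:**
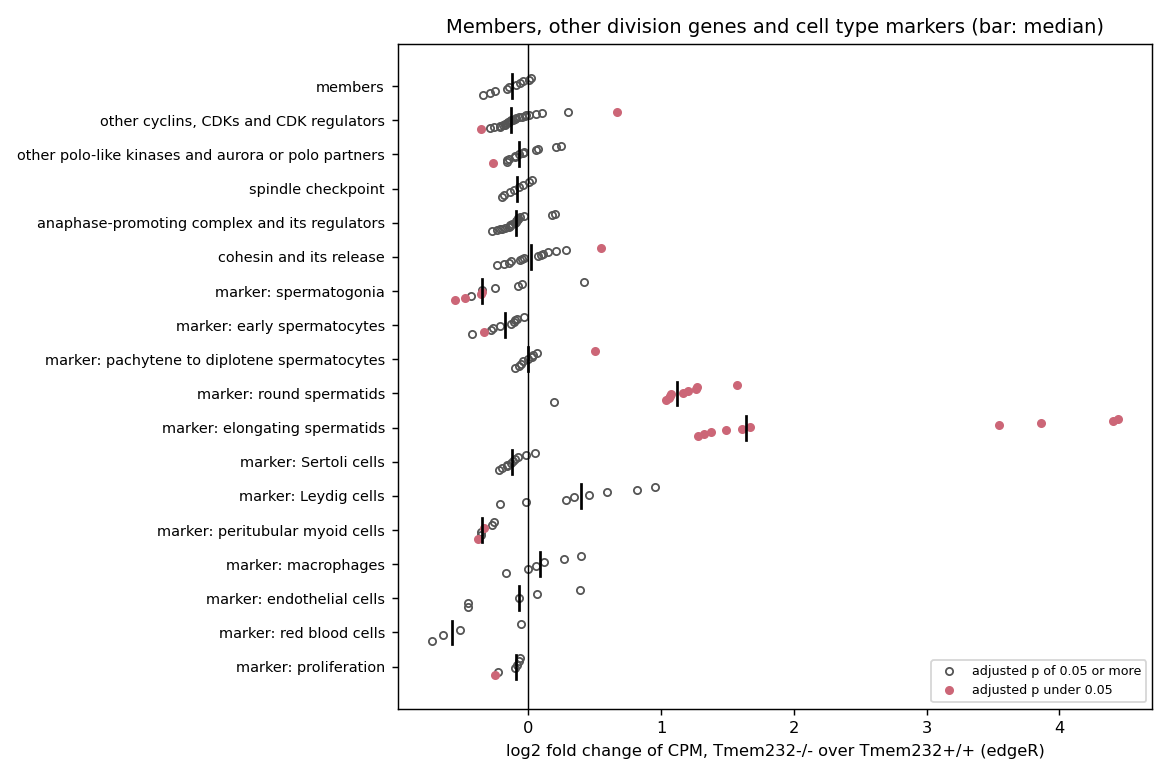
Log2 fold change of CPM for the libraries labelled Tmem232-/- over those labelled Tmem232+/+ (edgeR) for each tested gene of the members, the 5 lists of other division genes and the 12 marker lists, with filled points for an adjusted p under 0.05 and bars for the median of a list. The members lie between -0.34 and 0.02 with no filled point, while the markers of round and elongating spermatids lie above 0 with medians of 1.12 and 1.64.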

How the data were processed

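Testis RNA of 8 mice was sequenced in read pairs, and libraries were grouped by their labels. After the removal of reads of low quality, the authors used HISAT and Bowtie2 for mapping to GRCm38.p6, StringTie and featureCounts for counting and DESeq2 for comparing genotypes, in versions not given in the sources used here. In the deposited table, estimated counts are raw and were rounded here to whole numbers. Its FPKM values, as deposited, are scaled by transcript length and library. The deposited columns of log2 fold change, p-value and q-value hold their own comparison of the genotypes, and these columns and the authors' means were not used.

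Counts were tested in R 4.3.3 with edgeR 4.0.16 (TMM, its default filter on low counts, quasi-likelihood test without covariates), with Benjamini-Hochberg adjustment over the 15787 tested genes. Single levels were compared by exact permutation over the 70 arrangements of 8 libraries. Alternatives used DESeq2 1.42.0, its size factors, library size alone, removal of the 10 most abundant genes, no filter, at least 10 counts in every library, limma 3.58.1 (voom, and FPKM with a pseudocount of 1 or 0.1), a replicate block, a fold change of 1.5 and each library left out. The steps were tested on simulated data. Summaries and figures were made in Python 3.11.15 (pandas 2.3.3, scipy 1.17.1, numpy 2.4.6, matplotlib 3.10.9). Coordinates come from the reference annotation of GRCm38. That annotation places Aurka and Cdc25c on the minus strand, the deposited table on the plus strand.

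The genes named are the 10 members, Tmem232, every other division gene at an adjusted p under 0.05 or else the most abundant gene of its list, and the first 2 genes of the germ cell and proliferation marker lists. Bub3, Ccne1, Haspin, Smc3 and Dmrtb1 fall outside this rule and were named after their values were seen. The members and lists were chosen with earlier results of these data known. The depth limits mainly Ccnb3 and Cdc25c, with fewer than 200 counts per library.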

Additional observations from a re-analysis of the deposited data

Results flagged for a closer look

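In 3 of 34 groups of 4 libraries, 1 library stood far from the rest by Dixon's criterion, where chance gives about 1.7. The groups were formed, under each label, by the members, Tmem232, Ccnd3, Rec8, Ccnd2, Cdca8, Bub1 and Ube2s. Ccnd3 was at 76.2 CPM in replicate 3 labelled Tmem232+/+, above 54.7 to 57.6 CPM in the other libraries of that label. Bub1 was at 111.7 CPM in replicate 4 labelled Tmem232-/-, below 141 to 145 CPM in the others. Bub1 was also at 124 CPM in replicate 3 labelled Tmem232+/+, below 138 to 139 CPM in the others. No group of a member was marked in this way.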

How the results depend on the processing

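The number of members past an adjusted p of 0.05 was 0 with each alternative test, scaling, filter and unit, and ranged from 0 to 1 when single libraries were left out, the 1 being Aurkb without replicate 4 labelled Tmem232-/- (log2 fold change -0.42). No alternative gave a member with a fold change of 2 or of 1.5 and an unadjusted P under 0.05. Of the other division genes, 4 rose with DESeq2 (Ccnd3, Rec8, Haspin and Smc3), 3 without a filter on low counts (Ccnd3, Rec8 and Haspin), and 2 to 5 with single libraries left out. The number that fell was 3 with library size alone (Bub3, Ccnd2 and Cdca8) and in each of the 3 fits of FPKM (Bub3, Ccne1 and Cdca8), 1 with DESeq2 size factors, 0 without a filter on low counts, 0 with the replicate block, and 0 to 1 with single libraries left out. Signs turned for 4 members and for Bub1 and Ube2s, all with values near 0. Ccnb1 ranged from -0.10 to 0.014 with single libraries left out. Ccnb2 was at -0.0096 with library size alone and at -0.013 in the 3 fits of FPKM, and ranged from -0.034 to 0.091 with single libraries left out. Cdc25c was at -0.027 with library size alone and at -0.082, -0.092 and -0.082 in the fits of FPKM, and ranged from -0.065 to 0.12 with single libraries left out. Plk1 was at 0.0045 without a filter, and ranged from -0.077 to 0.079 with single libraries left out. Bub1 was at -0.031 with library size alone, -0.0016 with limma-voom, -0.035 and -0.036 in the fits of FPKM and -0.0012 with the replicate block, and ranged from -0.029 to 0.099 with single libraries left out, as Ube2s did from -0.16 to 0.014. The cause of these turns was not tested. The exact permutation p of Aurka was 0.029 with library size alone.

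Deviations of same-numbered libraries correlated between -0.33 and 0.07, which shows no sign of pairing by replicate number. With 4 libraries per label, these correlations cannot exclude a pairing. With the replicate block, the calls over all genes went from 1633 higher and 230 lower to 1317 and 28, and Aurkb had a log2 fold change of -0.34 with an adjusted p of 0.193 in edgeR.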
